A study of Mus musculus with 3 samples.

Results

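The transcription factor p53 (Trp53) and 9 genes that it is known to switch on directly (Cdkn1a, Mdm2, Ccng1, Btg2, Phlda3, Zmat3, Trp53inp1, Sesn1 and Gdf15) were followed in mouse ST2 cells. These 10 genes were picked by name, and each had 1 row in a deposited table of 51826 genes. ST2 is a stromal line from mouse bone marrow with osteoblast and adipocyte potential. Empty vector was given with control siRNA in the control and with Fn1 siRNA in the Fn1 knockdown, and the NELL2 construct was given with control siRNA in the NELL2 overexpression. Fn1 encodes the matrix protein fibronectin 1, NELL2 is a secreted protein, and all siRNAs were used at 30 nM in a transient transfection. There was 1 library of polyadenylated RNA per group, so no value has a replicate error, no test between groups was possible and every difference is one between 2 libraries. The time from transfection to RNA extraction is not given in the sources used here.

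As background, p53 is kept scarce by the ubiquitin ligase MDM2 and is stabilised when DNA damage, nucleolar stress or oncogene activity interrupts this turnover. Stabilised p53 binds paired decamers near its target genes and raises their transcription, including that of Mdm2 itself, which closes a feedback loop. Because control acts mostly on the protein, Trp53 mRNA is a poor guide to p53 activity, and target transcripts are the usual readout. In stromal and osteoblast precursors p53 is known as a brake on proliferation and on bone formation.

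The DNA element through which p53 acts was looked for first, in the start-site sequences at hand. RefSeq start-site windows on GRCm38.p6, from 250 bases before to 50 bases after a start, were held for 8 of the 10 genes (11 windows), and none for Zmat3 or Trp53inp1. The p53 consensus decamer, a pattern that reads alike on both strands, was matched without mismatch in 5 of these 11 windows and in 8.36% of all 32851 windows. The full p53 consensus, 2 decamers with no spacer, an intact core in each and at most 2 mismatches in all, was found in 1 of the 11 windows and in 0.158% of all windows. That window was the one at the upstream start of Cdkn1a. Its site is printed 5′ to 3′ on the strand of the gene with the 20 matched bases in capitals, and lies 51 to 32 bases before the start with 1 mismatch.
Cdkn1a, full site, chr17:29090923-29090952, plus strand: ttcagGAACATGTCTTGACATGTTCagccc

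The single decamers are shown in the same way, with the 10 matched bases in capitals, since they are weaker matches to the same consensus. That of Cdkn1a lies in the window that also holds the full site, and that of Sesn1 lies at a start inside the gene.
Cdkn1a, decamer, chr17:29090896-29090925, plus strand: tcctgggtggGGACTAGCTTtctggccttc
Trp53, decamer, chr11:69580274-69580303, plus strand: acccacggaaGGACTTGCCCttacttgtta
Mdm2, decamer, chr10:117710925-117710954, minus strand: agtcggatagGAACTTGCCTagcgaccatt
Ccng1, decamer, chr11:40755452-40755481, minus strand: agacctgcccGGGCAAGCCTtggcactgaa
Sesn1, decamer, chr10:41887256-41887285, plus strand: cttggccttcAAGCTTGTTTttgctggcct

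These matches describe letters only, and binding of p53 was not measured. Sequence outside the windows, such as most of each intron, was not searched. A decamer shown here therefore need not be the element through which p53 acts on that gene. No match was found in the windows of Btg2, Phlda3 or Gdf15, which says only that these short stretches lack the letters searched.

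The libraries were first checked against their labels. With the control first, then NELL2 overexpression and then Fn1 knockdown, Fn1 was listed at 2802, 2489 and 137 FPKM and Nell2 at 0.640, 326 and 1.06 FPKM, as the labels give. FPKM are fragment numbers scaled to transcript length and to the mapped total of a library. Where 3 levels follow each other below, they stand in this order of libraries. All 9 stromal and mesenchymal markers were present, with a summed level between 3378 and 3719 FPKM, whereas the 4 epithelial markers summed to 0.412 FPKM or less and the 3 adipocyte markers to 0.220 FPKM or less. The 6 blood cell markers summed to 5.61, 5.79 and 2.94 FPKM, most of it Cd68, with Cd3e at 0 in every library, and their part in the differences below was not tested. Estimated depth was 23000000 to 24300000 fragments per library.

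In control ST2 cells the p53 targets spanned a wide range of levels. Cdkn1a, which encodes the cyclin-dependent kinase inhibitor p21, stood at 372 FPKM, above 98.8% of the genes that reached 1 FPKM. Ccng1, encoding cyclin G1, which directs a phosphatase to MDM2, followed at 210 FPKM. Sesn1 and Gdf15 were at 3.83 and 4.05 FPKM, where 23.9% and 25.0% of the genes at 1 FPKM or more were lower. The level of Cdkn1a was thus 97.0 times that of Sesn1. Between these ends lay Phlda3 (99.0 FPKM), Trp53 (70.3 FPKM), Mdm2 (63.6 FPKM), Btg2 (25.8 FPKM), Trp53inp1 (23.6 FPKM) and Zmat3 (16.3 FPKM).

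The order of the genes was nearly the same in all 3 libraries. For 7 of the 9 neighbouring pairs in the control order, the range over the 3 libraries did not overlap that of the next gene. The exceptions were Trp53inp1 (14.0 to 23.6 FPKM) with Zmat3 (15.1 to 24.6 FPKM), which changed places after Fn1 knockdown, and Gdf15 (3.23 to 4.90 FPKM) with Sesn1 (3.12 to 3.83 FPKM). The highest library exceeded the lowest by a factor of 1.03 in Phlda3, 1.04 in Trp53 and 1.08 in Cdkn1a. In Trp53inp1, Zmat3 and Gdf15 this factor was 1.68, 1.63 and 1.51. These ranges span 3 treatments and are not a replicate error.

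**Figure D1:**
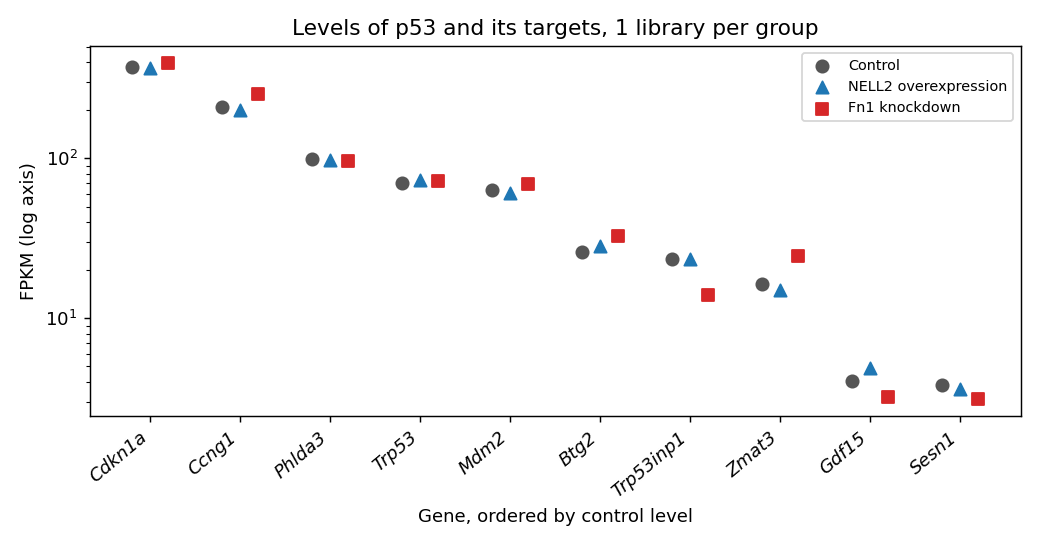
Level of Trp53 and 9 targets in FPKM on a log axis, with 1 point per library (grey circle, control; blue triangle, NELL2 overexpression; red square, Fn1 knockdown) and genes ordered by control level. The points of Phlda3, Trp53 and Cdkn1a lie close together, while the Fn1 knockdown point of Trp53inp1 (14.0 FPKM) is below and that of Zmat3 (24.6 FPKM) above those of the same gene in the other libraries.

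Differences are given below on the log2(FPKM + 1) scale, and a gene was called when this difference was 1 or more in size (2-fold) with 1 FPKM or more in either library. None of the 10 genes was called in any comparison. Across all genes tested, 0.652% were called for NELL2 overexpression against control, 1.23% for Fn1 knockdown against control and 1.29% for Fn1 knockdown against NELL2 overexpression, so a count of 0 among 10 genes is near the background. At a 1.5-fold cutoff, 0 members passed with NELL2 overexpression (background 2.59%) and 1 passed after Fn1 knockdown (background 6.24%). That gene was Trp53inp1, which was lower. Zmat3, higher at 151% of control, fell short of this cutoff only through the added 1 FPKM, with a difference of 0.57 against 0.59 when 0.1 FPKM was added instead. In bulk RNA such as this, fewer cells that express a gene and less of its RNA per cell cannot be told apart.

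With NELL2 overexpression the p53 genes stayed close to the control library. Their median difference was -0.02, against 0.01 over all 12572 genes tested, and the values ran from -0.10 for Zmat3 to 0.22 for Gdf15. Of the 10 genes, 3 were higher and 7 lower, where 52.3% and 47.7% of all genes tested were. After Fn1 knockdown the values spread more, from -0.71 for Trp53inp1 to 0.57 for Zmat3. The median was 0.06, against 0.00 over 12574 genes, with 6 genes higher and 4 lower, where 49.5% and 50.5% of all genes were. Without Sesn1 and Gdf15, which a filter of 5 FPKM removes, this median was 0.10. The spread over all genes was also wider in this comparison, with an SD across genes of 0.34 against 0.25 for NELL2 overexpression. Both comparisons use the same control library.

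**Figure D2:**
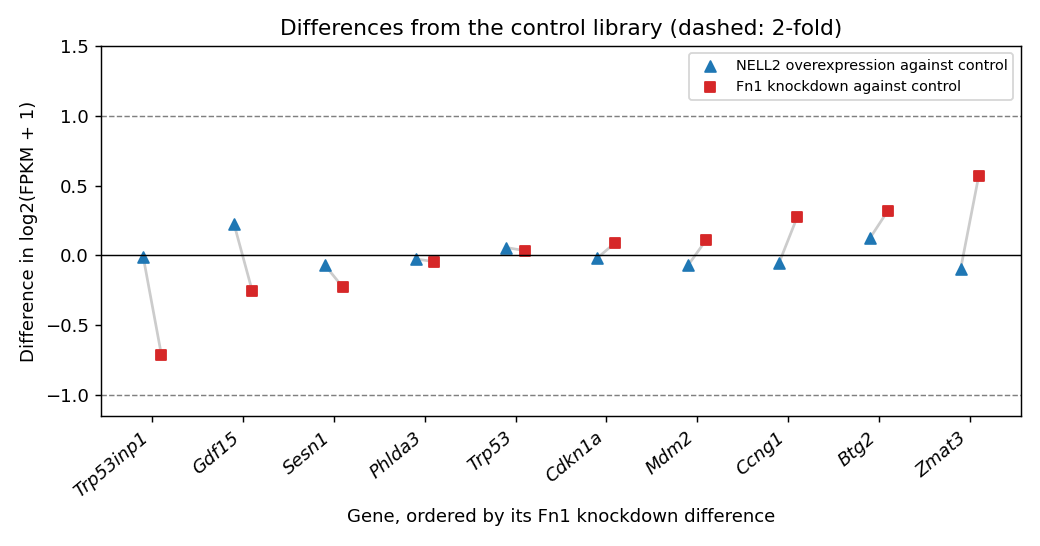
Difference from the control library in log2(FPKM + 1) for each of the 10 genes, ordered by the Fn1 knockdown value (blue triangle, NELL2 overexpression; red square, Fn1 knockdown; grey line, joins the points of a gene; dashed lines, 2-fold). No point reaches a dashed line, and the blue points lie between -0.10 and 0.22 while the red points run from -0.71 to 0.57.

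Trp53 itself and its main antagonist were examined next. Trp53 (ENSMUSG00000059552.13, GRCm38 chromosome 11, 69580359 to 69591873, plus strand) had levels of 70.3, 73.1 and 71.9 FPKM. The highest was 1.04 times the lowest, and differences as large as its 0.06 and 0.03 were seen in 67.9% and 88.6% of all genes tested. Mdm2 (ENSMUSG00000020184.15, chromosome 10, 117688875 to 117710758, minus strand) was at 63.6, 60.5 and 68.8 FPKM, lowest with NELL2 overexpression and highest after Fn1 knockdown. Its level per length was 0.905, 0.828 and 0.956 times that of Trp53. The Mdm2 paralogue Mdm4, which restrains the transactivation domain of p53, was at 8.64, 9.56 and 7.03 FPKM, opposite to Mdm2 in direction in both comparisons with the control. The p53 paralogues Trp63 and Trp73 were at 0.0325 FPKM or less in every library. Mdm4, Trp63 and Trp73 belong to the fixed list of p53 family genes and regulators, and Trp63 and Trp73 were named after their values had been seen.

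The targets that halt or slow the cell cycle came next. Cdkn1a (ENSMUSG00000023067.14, chromosome 17, 29090976 to 29100727, plus strand) reached 372, 367 and 396 FPKM in the 3 libraries. It shares 273 exon bases with the gene model AC167363.2 on the other strand, and was the only one of the 10 genes with such an overlap. The gene with the full p53 site shown above was therefore at 98.7% and 107% of control. Its level per length stayed between 5.02 and 5.51 times that of Trp53. Ccng1 (ENSMUSG00000020326.7, chromosome 11, 40748552 to 40755311, minus strand) was at 210, 202 and 254 FPKM, with the Fn1 knockdown library above both others, at 121% of control. Btg2 (ENSMUSG00000020423.6, chromosome 1, 134075170 to 134079120, minus strand), an antiproliferative partner of the mRNA deadenylation machinery, was at 25.8, 28.2 and 32.5 FPKM. Both treated libraries were above the control, with differences of 0.12 and 0.32. A difference at least as large as that of Btg2 after Fn1 knockdown was seen in 22.4% of all genes, and as large as that of Ccng1 (0.27) in 28.5%.

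Of the remaining targets inside the cell, Phlda3 differed least from the control over both comparisons. Phlda3 (ENSMUSG00000041801.5, chromosome 1, 135766119 to 135769136, plus strand) encodes a pleckstrin-homology protein that competes with AKT for membrane lipids. Its levels were 99.0, 97.3 and 96.0 FPKM, with the control highest by a narrow margin. Zmat3 (ENSMUSG00000027663.12, chromosome 3, 32334792 to 32366014, minus strand) encodes a zinc finger protein that binds RNA. Its levels were 16.3, 15.1 and 24.6 FPKM, about 2900, 2800 and 4600 estimated fragments. The Fn1 knockdown library stood apart at 151% of control, and 6.74% of all genes tested differed by at least this much (0.57). Sesn1 (ENSMUSG00000038332.13, chromosome 10, 41809935 to 41908424, plus strand), which encodes a sestrin that restrains mTORC1, was at 3.83, 3.61 and 3.12 FPKM. These rest on about 240 to 280 estimated fragments, and the control was the highest of the 3 libraries.

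Trp53inp1 had the largest difference from the control among the 10 genes. Trp53inp1 (ENSMUSG00000028211.11, chromosome 4, 11156431 to 11174379, plus strand) encodes a stress-induced nuclear protein that cooperates with p53 and also acts in autophagy. Its 3 levels were 23.6, 23.4 and 14.0 FPKM, or about 2900, 3000 and 1800 estimated fragments. The control and NELL2 overexpression libraries were nearly equal, and the Fn1 knockdown library held 59.4% of the control level. A difference of this size (-0.71) or larger was found in 3.66% of all genes tested. Its paralogue Trp53inp2, named after its value had been seen, was at 44.9, 46.9 and 45.0 FPKM. Trp53inp1 and Zmat3 thus differed from the control by similar amounts in opposite directions in the Fn1 knockdown library, and the level of Zmat3 went from 0.689 times that of Trp53inp1 in the control to 1.75 times.

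Gdf15 was the only secreted member. Gdf15 (ENSMUSG00000038508.7, chromosome 8, 70629393 to 70632456, minus strand) encodes a stress cytokine of the TGF-beta superfamily and is also induced by the integrated stress response. Its levels were 4.05, 4.90 and 3.23 FPKM. The NELL2 overexpression library was the highest and the Fn1 knockdown library the lowest, at 121% and 79.9% of control. These levels rest on about 140, 170 and 110 estimated fragments, the smallest numbers among the 10 genes. A difference as large as those of Gdf15 from the control was seen in 18.0% of all genes with NELL2 overexpression (0.22) and in 30.9% after Fn1 knockdown (-0.25).

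The stress response genes were set beside Gdf15. None of the 9 integrated stress response genes was called in either comparison with the control, where 0.652% and 1.23% of all genes were, so 0 of 9 is near the background. Ddit3, the transcription factor CHOP, was at 57.7, 69.0 and 57.9 FPKM, highest with NELL2 overexpression. Ppp1r15a, a phosphatase subunit that ends the response, was at 19.2, 12.1 and 12.1 FPKM. It was the single gene of the list past 1.5-fold on the log2(FPKM + 1) scale, lower in both comparisons, where 1.05% and 3.32% of all genes were. Both comparisons share the control library, which held its highest level. Vldlr, a lipoprotein receptor, was at 4.87, 5.20 and 7.57 FPKM. After Fn1 knockdown it was thus at 156% of control, and only the added 1 FPKM kept its difference, 0.55, short of the 1.5-fold cutoff. The list's median difference was 0.02 with NELL2 overexpression and 0.13 after Fn1 knockdown.

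**Figure D3:**
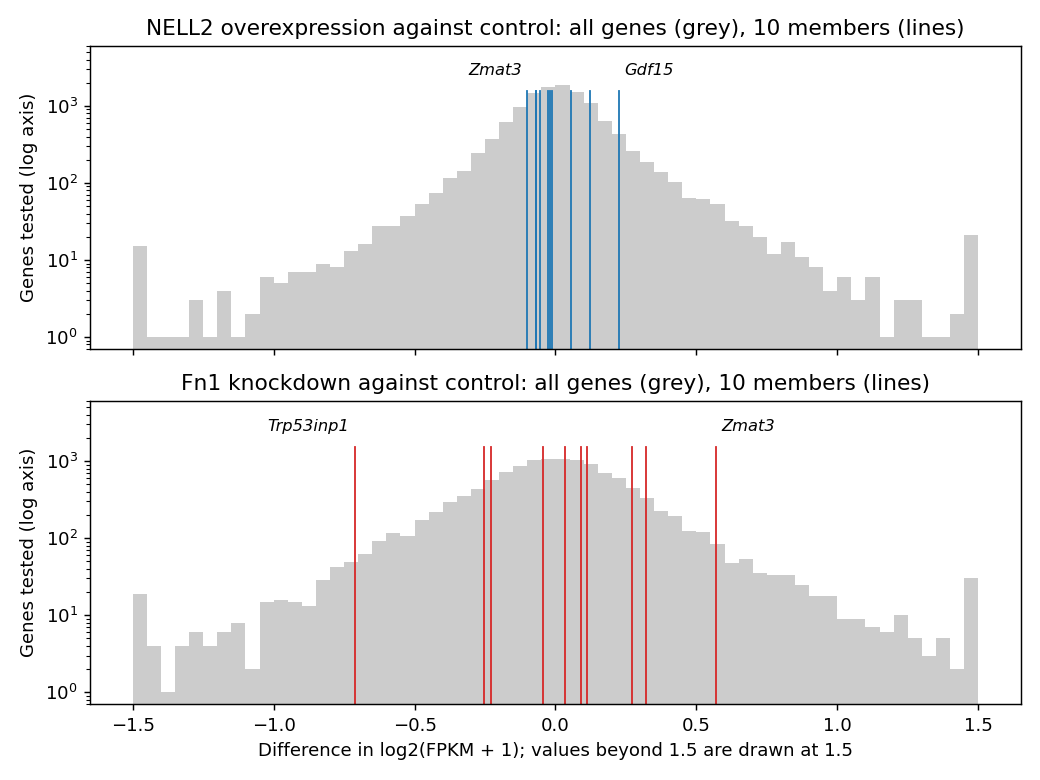
Histogram of the difference from control in log2(FPKM + 1) over all genes tested (grey, log count axis), with the 10 genes as vertical lines, for NELL2 overexpression (top) and Fn1 knockdown (bottom). The lines of the top panel lie in the middle of the histogram, and in the bottom panel Trp53inp1 (-0.71) and Zmat3 (0.57) lie out on its shoulders, where 3.66% and 6.74% of all genes differed by as much.

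The Fn1 knockdown and NELL2 overexpression libraries were also compared directly. The median difference of the 10 genes was 0.05, against -0.01 over 12596 genes tested, and 0.15 with a filter of 5 FPKM, which leaves out Sesn1 and Gdf15. At the 1.5-fold cutoff 2 members passed, against 6.40% of all genes, with Zmat3 higher (24.6 against 15.1 FPKM, a difference of 0.67) and Trp53inp1 lower (14.0 against 23.4 FPKM, -0.70). Gdf15 followed in size at -0.48, with 3.23 against 4.90 FPKM. Trp53 differed by -0.02.

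Genes whose pattern over the 3 libraries was most like that of Trp53inp1 were sought among 8547 genes at 5 FPKM or more in the control. By distance over both differences from the control, the nearest were Ube2d3 (133, 130 and 81.4 FPKM), Arl2bp (44.4, 43.9 and 26.3 FPKM) and Mark2 (17.2, 17.0 and 10.3 FPKM), at distances of 0.0275, 0.0275 and 0.0305. With 3 libraries, and therefore 2 differences per gene, such likeness is weak.

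The wider p53 pathway was then described with fixed lists. Among 25 p53 family genes and regulators, 23 reached 1 FPKM and none was called in either comparison with the control, against 0.652% and 1.23% of all genes, so a count of 0 is near the background. At 1.5-fold 0 genes passed with NELL2 overexpression and 1, Rchy1, was lower after Fn1 knockdown, or 4.35% against 3.32% of all genes. With NELL2 overexpression only the added 1 FPKM kept Cop1, at 66.3% of control, and Chek1, at 66.5%, short of this cutoff. Chek1 was named after its value had been seen. The list's median difference was -0.02 with NELL2 overexpression and -0.04 after Fn1 knockdown. The lowest value with NELL2 overexpression was that of Cop1 (listed as Rfwd2), a ubiquitin ligase that targets p53, at 42.8, 28.4 and 32.9 FPKM, so that the control was the highest library. The lowest after Fn1 knockdown was that of Rchy1 (PIRH2), another such ligase, at 21.3, 22.6 and 12.8 FPKM. Kat5, an acetyltransferase that modifies p53, was the highest of those at 5 FPKM or more after knockdown, at 11.6, 11.6 and 13.6 FPKM. Mdm4 was the highest with NELL2 overexpression by the same rule. Kat5 and Rchy1 share exon bases with genes on the other strand (Rnaseh2c, which was lowest after Fn1 knockdown, and Thap6, at 4.19, 4.38 and 3.90 FPKM), and whether counting used strand is not stated.

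A further 66 p53 targets were grouped by function, of which 65 reached 1 FPKM in either library of each comparison with the control. None of the 65 was called at 2-fold in either comparison, against 0.652% and 1.23% of all genes. With 0.1 FPKM added in place of 1 FPKM, Trp53i11, at 227% of control after Fn1 knockdown, was called. At 1.5-fold, 1 gene was higher and 0 were lower with NELL2 overexpression, where 1.54% and 1.05% of all genes were. After Fn1 knockdown 9 were higher and 2 lower at 1.5-fold, which is 13.8% and 3.08% of the list against 2.92% and 3.32% of all genes. The list's median difference after Fn1 knockdown was nonetheless -0.04, with 31 genes higher and 34 lower.

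The higher genes came from several functions, and 8 of the 9 are given here. Among arrest and feedback targets they were Btg1 (10.8 FPKM in the control and 18.2 FPKM after Fn1 knockdown), the paralogue of Btg2, and the kinase gene Plk2 (64.5 and 101 FPKM) and the 14-3-3 sigma gene Sfn (32.6 and 51.3 FPKM). Among death targets they were Trp53i11 (3.39 and 7.71 FPKM) and Ei24 (24.7 and 38.7 FPKM). Besides these there were the glutathione peroxidase gene Gpx1 (18.8 and 37.8 FPKM), the matrix protein gene Thbs1 (2177 and 3302 FPKM) and Igfbp3 (8.03 and 15.1 FPKM), which binds insulin-like growth factors. Gpx1 was also the single gene past 1.5-fold with NELL2 overexpression, at 30.4 FPKM. The control library, shared by both comparisons, held the lowest level of Gpx1. The 2 lower genes were Ckap2 (20.0 and 10.1 FPKM), a mitotic spindle protein, and the phosphatase gene Ptprv (5.39 and 2.77 FPKM). Of these, Plk2, Sfn, Ei24 and Thbs1 were named after their values had been seen. Many of these genes have inducers other than p53, and p53 itself was not assayed.

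By group, the 14 arrest and feedback targets had a median difference of 0.01 with NELL2 overexpression and -0.10 after Fn1 knockdown. Pml, a nuclear body protein, was the highest of those at 5 FPKM or more with NELL2 overexpression at 46.7 FPKM in the control and 52.1 FPKM, and Ptprv the lowest at 4.01 FPKM. The 18 death targets had medians of 0.06 in both comparisons, and 15 of the 18 were higher with NELL2 overexpression, where 52.3% of all genes were. Fas, a death receptor, was at 8.54, 10.2 and 7.03 FPKM in the 3 libraries, and Bbc3, the BH3-only protein PUMA, at 8.78, 7.81 and 11.2 FPKM. The NELL2 overexpression library was thus the highest for Fas and the lowest for Bbc3. Bid, another BH3-only gene, was the lowest death target after Fn1 knockdown, at 19.7 FPKM in the control and 14.3 FPKM, and shares exon bases with Bcl2l13 on the other strand. Bcl2l13 was at 9.57, 7.61 and 12.4 FPKM where Bid was at 19.7, 20.9 and 14.3 FPKM, opposite in direction in both comparisons with the control, and its part in the level of Bid was not tested.

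The 10 DNA repair targets had a median of 0.01 with NELL2 overexpression and -0.25 after Fn1 knockdown, with 7 of 10 lower in the latter, where 50.5% of all genes were. Ercc5, an excision repair nuclease, was at 12.4, 12.7 and 9.58 FPKM, and the polymerase gene Polk at 13.3, 13.4 and 13.5 FPKM. The 3 genes not lower after Fn1 knockdown were Polk, Xpc (3.97 and 4.22 FPKM) and the ribonucleotide reductase gene Rrm2b (3.59 and 4.39 FPKM), of which Xpc and Rrm2b were named after their values had been seen. The 16 metabolism, redox and autophagy targets at 1 FPKM or more had medians of 0.02 and -0.06, with Ephx1, an epoxide hydrolase, at 182, 167 and 143 FPKM and the thiamine transporter gene Slc19a2 at 12.4, 11.8 and 9.44 FPKM. The 7 secreted or matrix targets had medians of 0.00 and 0.23, and their lowest value at 5 FPKM or more after Fn1 knockdown was that of the protease gene Ctsd, at 583, 584 and 577 FPKM. At 1.5-fold 3 of these 7 were higher and 0 lower after Fn1 knockdown. That is 42.9% and 0% of a small list, against 2.92% and 3.32% of all genes. Ephx1 shares exon bases with the pseudogene Gm36961 on the same strand, which was at 0.0959, 5.36 and 4.67 FPKM, opposite in direction to Ephx1 in both comparisons, and its part in the level of Ephx1 was not tested. Ctsd shares exon bases with another gene. Plk1, Ppp1r15a, Ptprv, Pml, Ei24, Thbs1 and Ube2d3 share exon bases with genes on the other strand that were at 2.81 FPKM or less in every library.

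**Figure D4:**
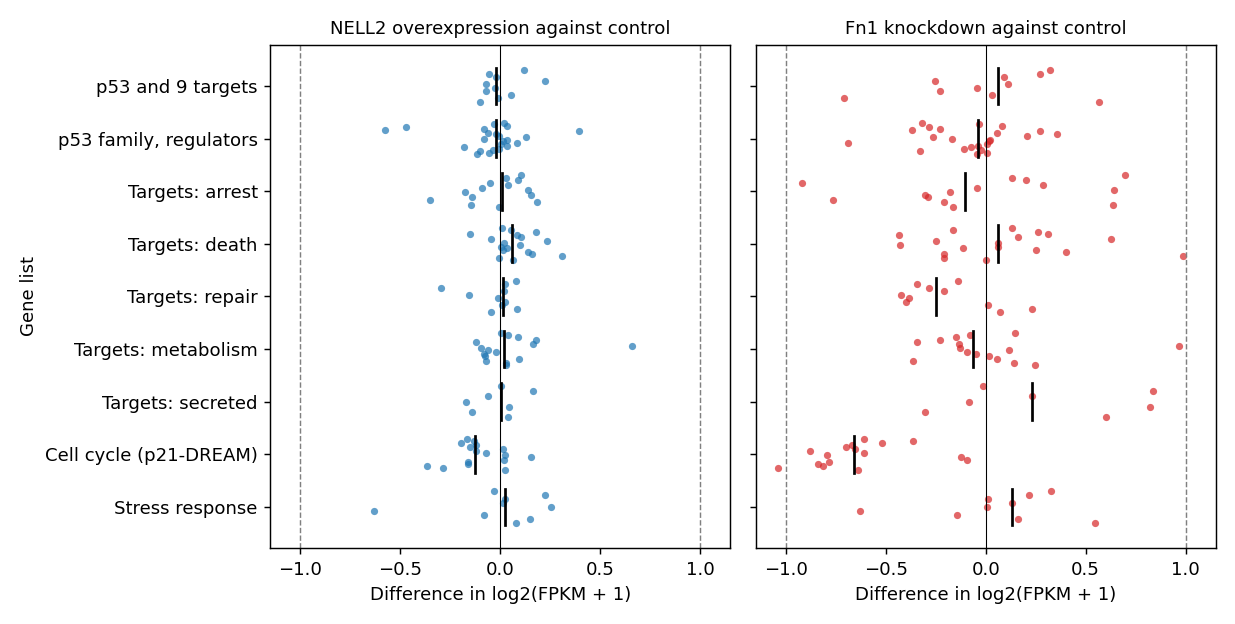
Difference from control in log2(FPKM + 1) for p53 and its 9 targets and for 8 lists of pathway genes, for NELL2 overexpression (left) and Fn1 knockdown (right). Each point is 1 gene at 1 FPKM or more in either library, black bars are medians and dashed lines mark 2-fold. The cell cycle list (median -0.66 after Fn1 knockdown) is shifted to lower values, while the 10 genes (median 0.06) are spread on both sides of 0.

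Finally, genes that p21 is known to lower through the DREAM repressor complex were set beside Cdkn1a. Of 16 such cell cycle genes, 16 were lower after Fn1 knockdown, where 50.5% of all genes were, with a median difference of -0.66, while Cdkn1a differed by 0.09. E2f1, named after its value had been seen, differed least, by -0.09 (17.7 FPKM in the control and 16.6 FPKM). At 1.5-fold 12 of the 16 were lower, which is 75.0% against 3.32% of all genes. This list, like the others, was chosen with earlier results of these data known. Its genes are not independent of each other, and the share of dividing cells was not tested. At 2-fold 1 of the 16 was called, against 1.23% of all genes, and this was Plk1, a mitotic kinase gene, at 40.2, 32.8 and 19.1 FPKM. Its difference after Fn1 knockdown was -1.04, and the call was lost with 5 FPKM added in place of 1 FPKM. With NELL2 overexpression 11 of the 16 were lower, or 68.8% against 47.7% of all genes, and 0 of the 16 passed 1.5-fold. Their median there was -0.13, with Mki67, a proliferation marker, the lowest (15.8 FPKM in the control and 12.0 FPKM) and the kinase gene Cdk1 the highest (20.0 and 22.4 FPKM). Cdkn1a mRNA was at 98.7% of control in that library.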

How the data were processed

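ST2 cells were profiled in 3 libraries, 1 per group. Per the labels and the study's methods, the authors enriched polyadenylated RNA, sequenced paired ends on an MGISEQ-2000 and mapped reads to the mouse transcriptome with HISAT2 in what the methods call Strand alignment and filtering pipelines, and the submitters' processing notes name GRCm38 and DESeq. The table deposited by the authors holds FPKM, 1 column per library. Which software computed the FPKM, with which annotation and whether reads were counted by strand, is not given in the sources used here.

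Members and lists were chosen with earlier results of these data known. Differences were taken on log2(FPKM + 1), which understates changes of low genes, and called at 2-fold with 1 FPKM or more in either library. No test was run, and the script was tested on simulated data. The named genes were the 10 members, Nell2, Fn1, called list genes, the gene with the largest rise and fall at 5 FPKM or more per list and comparison with the control, and the 3 nearest genes to the member of largest difference. Of 116 list genes, 116 had a row, Cop1 under its older name. Some list genes that the rule or a count would name are not reported here.

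Depth was estimated from the smallest frequent step of FPKM times length in genes with 1 transcript in GENCODE M21 (GRCm38). At this step 25.1% to 25.4% of low values came within 0.02 of whole fragments. Reads were therefore not recovered, and the fragment numbers given, from median coding transcript lengths, are approximate. No interval was computed. Gene coordinates are those of GENCODE M21, and start-site windows are from RefSeq. Python 3.11.15 and pandas 2.3.3 were used.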

Additional observations from a re-analysis of the deposited data

How the results depend on the processing

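No paired analysis was possible because there was a single library per group, and for the same reason no replicate could be left out. Of 90 member differences recomputed with a pseudocount of 0.1 or 5 or with median-of-ratios scaling, 0 changed sign or call, and 10 moved by more than 1.5 times, all 0.48 or less in size. The scaling factors, 0.998 to 1.004, test little. With a 1.5-fold cutoff, 1 member passed for Fn1 knockdown against control and 2 for Fn1 knockdown against NELL2 overexpression, and 25, 15 and 2 of the 116 list genes passed for Fn1 knockdown against control, Fn1 knockdown against NELL2 overexpression and NELL2 overexpression against control, where 6.24%, 6.40% and 2.59% of all genes tested did. Of the 25, 12 were on the cell cycle list. A 4-fold cutoff or a pseudocount of 5 left 0 list genes for Fn1 knockdown against control, Plk1 being lost, and a pseudocount of 0.1 gave 2, Plk1 and Trp53i11. The latter gave 1 for Fn1 knockdown against NELL2 overexpression, Cdc25c. With a filter of 5 FPKM, which removes Sesn1 and Gdf15, the member median was 0.10 for Fn1 knockdown against control and 0.15 against NELL2 overexpression.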
